A study of Ursus arctos with 12 samples.

Results

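The genes of the proteasome were followed in the thigh muscle of brown bears between the active season and hibernation. They were taken by symbol, as the genes whose name starts with PSMA, PSMB, PSMC, PSMD, PSME, PSMF or PSMG followed by a digit, with at least 30 reads summed over the 12 libraries. The counts held 49 such genes, and 48 of them had enough reads, out of 17290 genes tested and 30249 counted. The gene left out, PSMB11, the catalytic subunit of the thymus, had 0 reads. The animals were 6 wild brown bears (Ursus arctos) of 2 to 3 years. Each gave a vastus lateralis sample in hibernation, taken in February and called winter, and a second in June, when bears are active, called summer. Total RNA was turned into stranded libraries of poly-A RNA, 1 per bear and season, so that every winter library had a summer library of the same bear. The seasons differ in feeding, activity and body temperature together, and the part of each in a season difference cannot be told apart. A biopsy holds every cell type of the muscle, so fewer cells of a type and less RNA per cell cannot be told apart.

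The proteasome is the large protease that degrades proteins tagged with ubiquitin. Its core particle is a barrel of stacked rings, with outer rings of alpha subunits that gate the entry and inner rings of beta subunits that hold the cutting sites. A regulatory cap binds the tagged protein, removes the ubiquitin and threads the chain into the barrel with a ring of ATPases. In muscle the proteasome is known as a main route by which contractile proteins are lost during disuse and fasting.

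Depth ran from 20191068 to 27283155 reads per library in summer and from 16742406 to 32140160 in winter. The 48 genes held 0.345 to 0.408% of the reads of a summer library and 0.344 to 0.414% of those of a winter library. All 10 markers of skeletal muscle fibres were read in each library. The winter library of bear 1509 stood apart on the second principal component of all genes, at −98.6 against 6.35 to 23.1 for the other winter libraries, and values without this bear are given where they change the call of a named gene.

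For most proteasome genes the estimated difference between the seasons was small. In winter 11 of the 48 genes were higher (22.9%), where 19.6% of all genes tested were, and 3 were lower (6.25%), where 21.2% of all genes were. The other 34 were not called, while 40.8% of all genes were called in either direction. Among genes whose mean level fell between the quartiles of the proteasome genes, 26.9% of 3125 were higher and 21.9% lower, against 25% and 4.17% of the 24 proteasome genes at that level, so the share higher did not exceed that of genes of like level. A gene was called at an adjusted p below 0.05 in edgeR's quasi-likelihood test with the bear as a term, and log2 fold changes are winter against summer throughout. Under stricter limits, with the adjusted p under 0.01 and the fold change over 1.3 or under 0.77, 4 were higher (12.2% of all genes) and 0 lower (13.4% of all genes), where 3 were lower at an unadjusted p below 0.05. The genes higher in all 6 bears numbered 9, where 18.4% of all genes were so, and those lower in all 6 numbered 3, where 19% of all genes were.

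The counts depended on the bears and the scaling. With library totals in place of TMM, 8 were higher and 4 lower, and over all genes 15.6% were higher and 23.6% lower. Without bear 1509, 13 were higher and 3 lower (21.1% and 21.9% of all genes). Without bear 1305, 5 were higher and 0 lower in edgeR (15.5% and 18% of all genes). Without bear 1316, 9 were higher and 0 lower (17.4% and 18.5%), and without bear 1512, 7 were higher and 1 lower (16.5% and 17.8%).

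The median log2 fold change of the 48 genes was 0.09, against −0.01 over all genes tested. With library totals both medians moved down, to 0.01 and −0.08. The median of single bears lay between −0.02 and 0.22 and was above 0 in 5 of 6 bears. The estimated differences were also small in size. For 43 of the 48 genes (89.6%) the log2 fold change lay within 0.5 of 0, as it did for 53.3% of all genes. It did so for 68.3% of the 3125 genes of like level, but only 24 of the 48 proteasome genes lie at that level. The median size of the log2 fold change was 0.15 for these 24 and 0.33 for the 3125. Of the 34 genes that were not called, 15 had a 95% interval of the log2 fold change that lay inside −0.377 to 0.379, which is a fold change of 0.77 to 1.3. These are 31.2% of the 48 genes, against 7.77% of all genes tested. Among the genes of like level it was 45.8% of the 24 proteasome genes and 19.3% of the 3125. The 15 genes with such an interval were PSMA1, PSMA2, PSMA5, PSMA6, PSMB1, PSMB7, PSMC1, PSMC4, PSMC6, PSMD1, PSMD5, PSMD7, PSMD14, PSME1 and PSME3, which span both rings of the core, the base and the lid of the cap, an assembly chaperone and 2 activators.

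**Figure D1:**
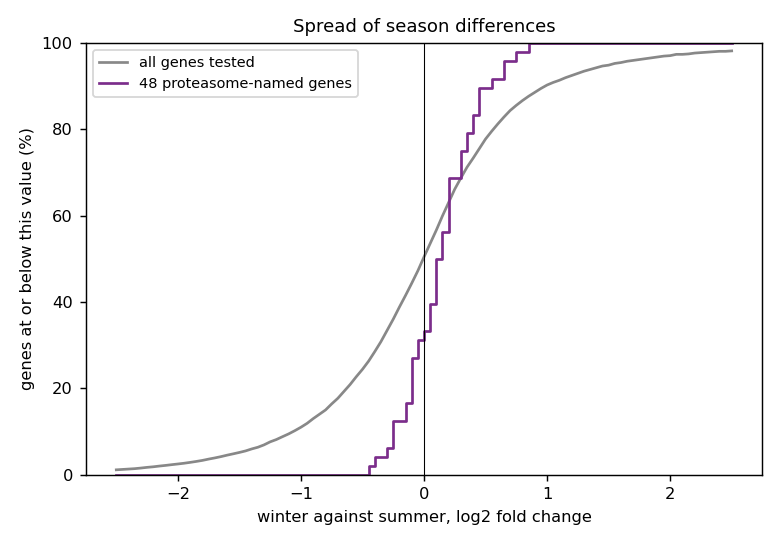
Share of genes (vertical axis, percent) at or below each winter against summer log2 fold change (horizontal axis), for the 48 proteasome genes and for all genes tested. The curve of the proteasome genes is steeper, with 89.6% of them within 0.5 of 0 against 53.3% of all genes.

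**Figure D2:**
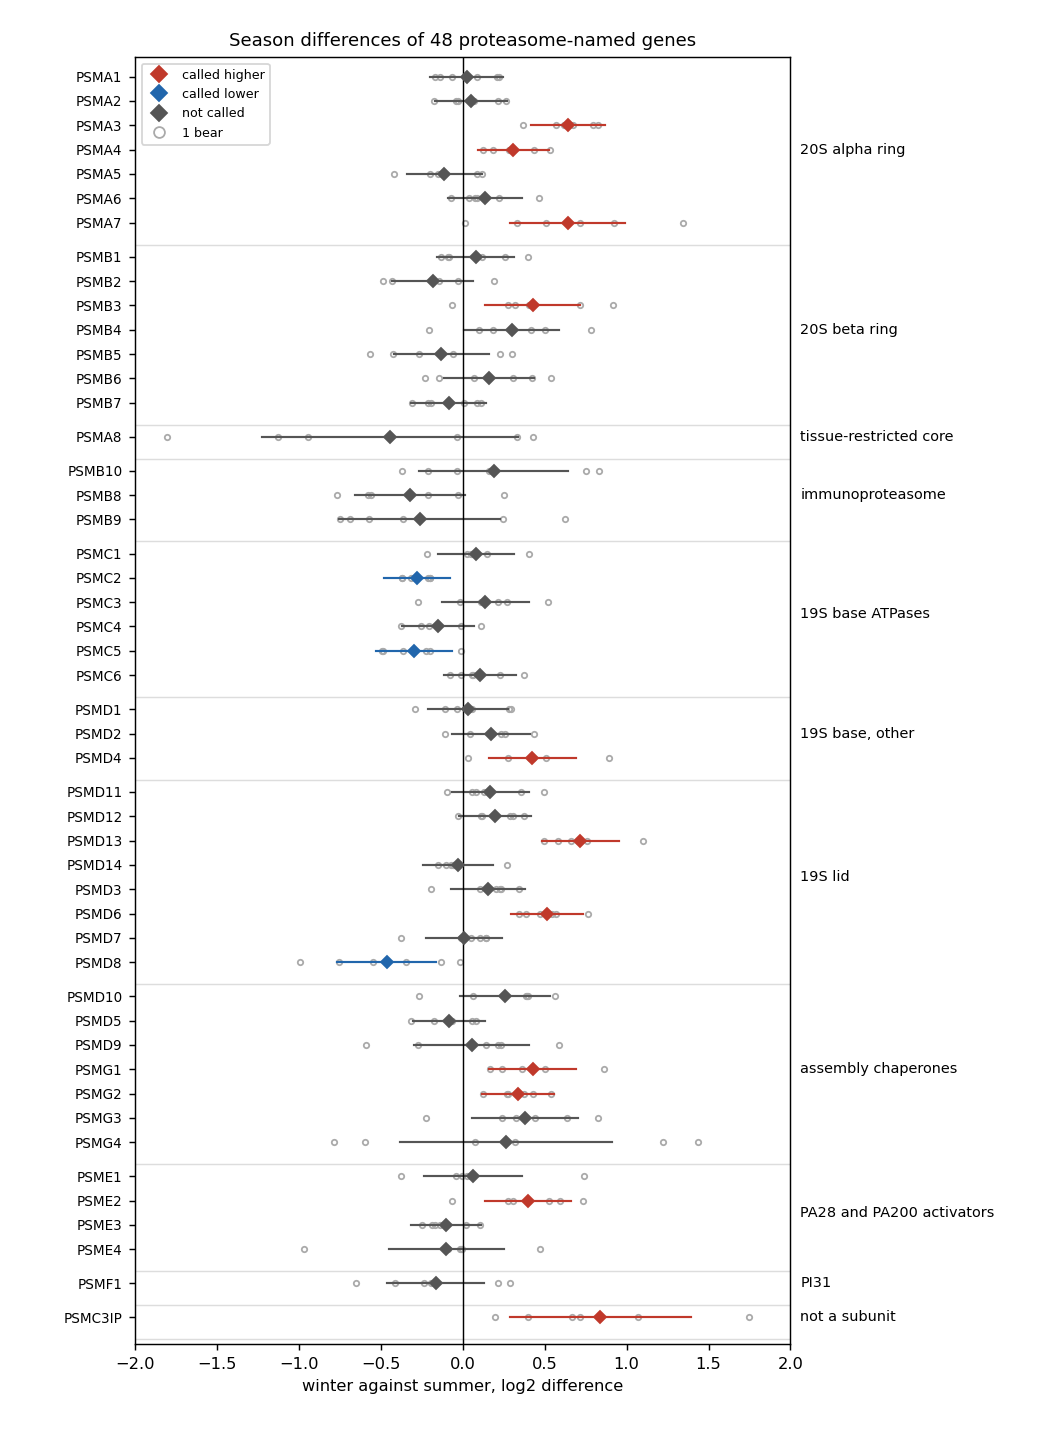
Winter against summer log2 fold change of each of the 48 genes (diamonds, with the 95% interval of the fit as a line) and the difference in each of the 6 bears (open circles), grouped by place in the proteasome. Most diamonds lie close to 0, with 11 genes called higher and 3 called lower.

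The 20S core, the barrel itself, has 14 constitutive genes here. Of these, 4 rose and 0 fell, where 19.6% of all genes tested were higher and 21.2% lower. DESeq2, limma voom and an unadjusted p below 0.05 also gave 0 lower. Their median log2 fold change of 0.11 became 0.03 with library totals. In the alpha ring, which controls entry to the barrel, 3 of 7 genes rose, and in the beta ring 1 of 7 did, where 19.6% of all genes were higher, and a difference between the rings was not tested. The median was 0.13 for the alpha ring and 0.08 for the beta ring, the latter −0.0008 with library totals.

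PSMA3, an alpha subunit, rose the most among the core genes together with PSMA7. In summer PSMA3 was at 112 CPM in the lowest library, 124 in the median and 152 in the highest, and in winter at 176, 198 and 220 (CPM, counts after TMM scaling to a library of 1000000 reads). Every winter library lay above every summer library. Its log2 fold change was 0.64 (standard error, SE, 0.10; adjusted p = 0.000763), with single bears from 0.37 to 0.82. PSMA7, another alpha subunit, was at 38, 59.8 and 80.9 CPM in summer and at 61.5, 96.4 and 102 in winter. The seasons overlapped for PSMA7 through the winter library of bear 1509, which went from 60.8 to 61.5 CPM, while the other 5 bears were higher in winter by more. Its log2 fold change was 0.64 (SE 0.16, adjusted p = 0.00841).

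PSMA4, also of the alpha ring, rose by less. It was at 50.5, 58.3 and 69.4 CPM in summer and at 63.2, 73.9 and 79.3 in winter, higher in 6 of 6 bears with overlapping seasons. The log2 fold change was 0.31 (SE 0.10, adjusted p = 0.0263). This call was lost without bear 1305, 1316, 1317 or 1512 (adjusted p = 0.0549 to 0.0696), with library totals (0.126) and without the filter on low counts (0.0591). The other alpha subunits were not called, with PSMA1, PSMA2 and PSMA6 at 0.02, 0.05 and 0.13 and PSMA5 at −0.11 (adjusted p = 0.407).

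In the beta ring PSMB3, a subunit without a cutting site, rose from 26.5, 42 and 49.4 CPM in summer to 41.4, 55.5 and 65.2 in winter. The log2 fold change of PSMB3 was 0.43 (SE 0.13, adjusted p = 0.0239), higher in 5 of 6 bears, and the call was lost without bear 1305, 1317 or 1512 (adjusted p = 0.0532 to 0.0807). PSMB4, also without a cutting site, was not called at 0.30 (adjusted p = 0.0914) but was called without bear 1509 (0.0216), and PSMB1 and PSMB2 were not called at 0.08 and −0.18 (adjusted p = 0.218 for PSMB2). The subunits that carry the cutting sites were not called. PSMB5, the chymotrypsin-like site, was at 95.2, 128 and 149 CPM in summer and at 80, 115 and 133 in winter (log2 fold change −0.13, SE 0.13, adjusted p = 0.452). PSMB6, the caspase-like site, was at 78.1, 103 and 133 CPM in summer and at 83.8, 118 and 132 in winter (0.16, SE 0.12, adjusted p = 0.326). PSMB7, the trypsin-like site, was at 153, 172 and 184 CPM in summer and at 145, 160 and 182 in winter (−0.09, SE 0.10, adjusted p = 0.535). The seasons overlapped for all 3 sites. PSMA8, an alpha subunit known from testis, was read 2 to 51 times in a library and was not called (−0.45, adjusted p = 0.337).

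**Figure D3:**
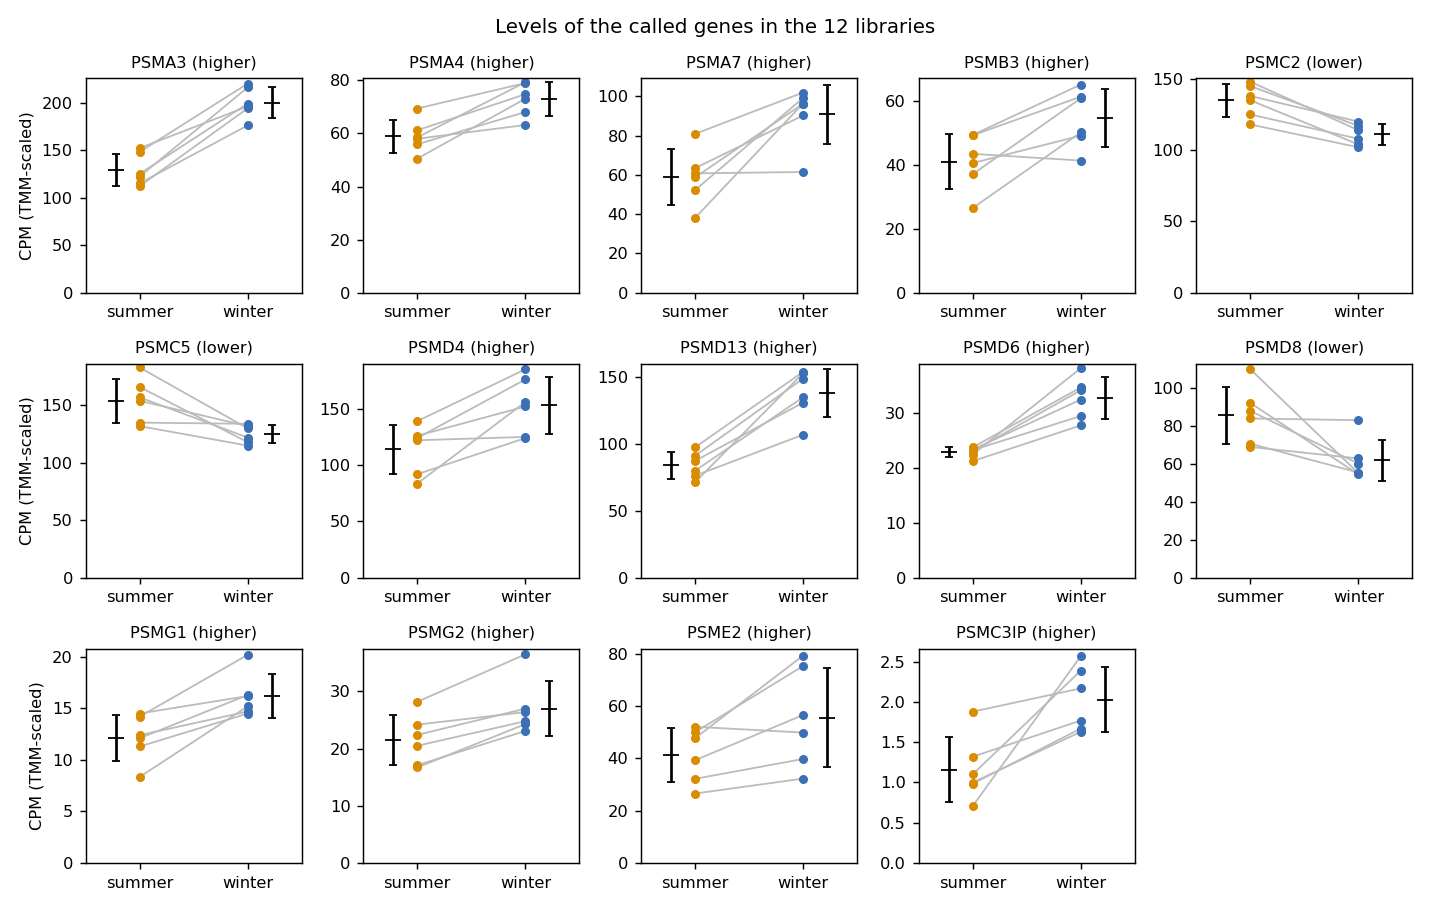
Level of each of the 14 called genes in the 12 libraries (CPM, vertical axis), with the 2 libraries of a bear joined by a line and the mean and SD of each season beside the points. The winter points of PSMA3, PSMD6, PSMD13 and PSMG1 lie above all summer points of the same gene, and the other 10 genes overlap.

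Winter and summer libraries did not overlap for 4 of the 48 genes, each higher in winter, where 9.12% of all genes tested were of that kind and 8.21% did not overlap and were lower.

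In the immunoproteasome, interferon-inducible subunits take the place of the constitutive cutting subunits in cells that present antigen. Of its 3 genes 0 were called in edgeR, where 40.8% of all genes tested were called in either direction. DESeq2, limma voom and an unadjusted p below 0.05 also gave 0. Their median log2 fold change was −0.26. PSMB8, which replaces PSMB5, was at 8.77, 12.4 and 15 CPM in summer and at 8.74, 9.85 and 10.5 in winter. It was lower in 5 of 6 bears, by a log2 fold change of −0.32 (SE 0.15, adjusted p = 0.116), and was called with library totals (0.0458) and without bear 1317 (0.0482). PSMB9, which replaces PSMB6, had 36 to 97 reads per library and stood at −0.26 (SE 0.22, adjusted p = 0.368). PSMB10, which replaces PSMB7, had 52 to 113 reads per library and stood at 0.19 (SE 0.21, adjusted p = 0.49). The seasons of these genes overlapped, and single bears ran from −0.75 to 0.62 for PSMB9 and from −0.37 to 0.83 for PSMB10.

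The exchange itself was followed as the log2 ratio of each inducible subunit to the subunit it replaces. The scaling of the libraries enters this ratio only through the small prior count added to the reads. Values are means with the SD over n = 6 bears. The ratio of PSMB8 to PSMB5 was −3.33 ± 0.42 in summer and −3.51 ± 0.25 in winter, a difference of −0.18 ± 0.44 that was negative in 4 of 6 bears. For PSMB9 to PSMB6 it went from −4.91 ± 0.39 to −5.32 ± 0.35, a difference of −0.41 ± 0.47, negative in 4 of 6 bears. For PSMB10 to PSMB7 it went from −5.70 ± 0.45 to −5.43 ± 0.16, a difference of 0.27 ± 0.51, positive in 3 of 6 bears. None of these differences exceeded the spread between bears. The exact two-sided sign-flip permutation test gave p = 0.3438, 0.125 and 0.2812 in this order, and 0.3438 for each after adjustment over the 3 ratios, where 6 bears allow no p below 0.03125.

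**Figure D4:**
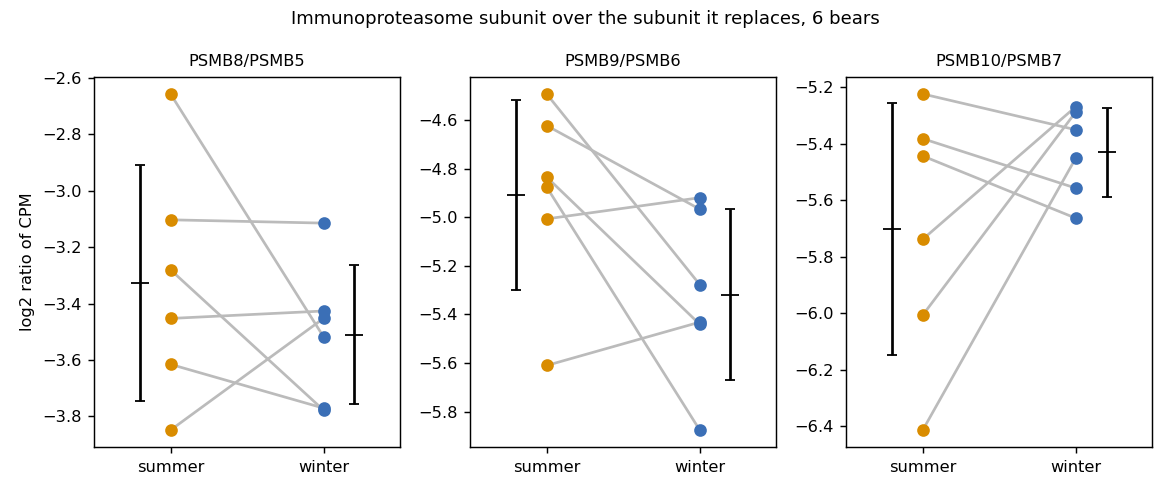
Log2 ratio of the CPM of each immunoproteasome subunit to that of the subunit it replaces (vertical axis) in summer and winter, with the libraries of a bear joined by a line and the mean and SD of the 6 bears beside the points. Lines run both up and down in each panel, and the seasons overlap.

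The 19S cap, which receives tagged proteins, has 17 genes here, of which 3 rose and 3 fell (17.6% each), with a median log2 fold change of 0.10. These shares are near those of all genes, 19.6% higher and 21.2% lower. Of the 6 ATPases of the base, which unfold the protein, 2 fell. Of the other 3 genes of the base 1 rose. Of the 8 genes of the lid, which removes ubiquitin, 2 rose and 1 fell.

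Both ATPases that fell did so by a small amount. PSMC2 was at 118, 136 and 148 CPM in summer and at 102, 111 and 120 in winter, a log2 fold change of −0.28 (SE 0.09, adjusted p = 0.0316). PSMC5 was at 132, 155 and 183 CPM in summer and at 115, 126 and 134 in winter, a log2 fold change of −0.30 (SE 0.10, adjusted p = 0.0409). Each was lower in 6 of 6 bears with overlapping seasons, but neither call was firm. In bear 1509 PSMC5 hardly moved, from 135 to 134 CPM. PSMC2 lost its call without bear 1305, 1316, 1317 or 1512 (adjusted p = 0.0516 to 0.0947) and without the filter on low counts (0.0571). PSMC5 lost its call without bear 1305, 1316, 1317, 1511 or 1512 (0.0548 to 0.128) and without the filter (0.0555). The other 4 ATPases were not called, from −0.15 for PSMC4 (adjusted p = 0.255) to 0.14 for PSMC3 (adjusted p = 0.379).

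PSMD4, a ubiquitin receptor of the base, rose from 83.6, 123 and 139 CPM to 124, 154 and 185. Its log2 fold change was 0.42 (SE 0.12, adjusted p = 0.0163), higher in 6 of 6 bears but from only 0.03 to 0.89. The call was lost without bear 1305 (adjusted p = 0.0573). The large scaffold subunits of the base were not called, with PSMD1 at 0.03 and PSMD2 at 0.17 (adjusted p = 0.221).

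PSMD13, a scaffold subunit of the lid, rose the most of the genes of the proteasome proper. It was at 71.4, 83.7 and 97.5 CPM in summer and at 107, 142 and 154 in winter, and every winter library lay above every summer library. The log2 fold change was 0.72 (SE 0.11, adjusted p = 0.000497), from 0.49 to 1.10 in single bears. PSMD6, another scaffold subunit of the lid, was at 21.2, 23.1 and 23.7 CPM in summer and at 27.7, 33.2 and 38.1 in winter. For PSMD6 the log2 fold change was 0.51 (SE 0.10, adjusted p = 0.00226), from 0.34 to 0.76 in single bears, again with no overlap.

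PSMD8, a further lid subunit, fell, against a median log2 fold change of 0.16 over the lid. It was at 69, 86 and 110 CPM in summer and at 54.5, 57.9 and 83.1 in winter, lower in 6 of 6 bears but from only −0.02 to −0.99, so that the seasons overlapped. The log2 fold change was −0.47 (SE 0.14, adjusted p = 0.0195), and the call was lost without bear 1305 or 1316 (0.0531 to 0.0596). PSMD14, the deubiquitinase of the lid, was not called at −0.03 (adjusted p = 0.84), nor was PSMD7, its partner in the enzyme, at 0.01 (adjusted p = 0.955). The remaining lid genes, PSMD3, PSMD11 and PSMD12, lay between 0.15 and 0.20 and were not called.

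Assembly chaperones guide the subunits into rings and leave the finished particle. Of the 7 genes, 2 rose, where 19.6% of all genes tested were higher. The median log2 fold change was 0.27, and 0.19 with library totals. In single bears the median ran from 0.06 to 0.59, above 0 in 6 of 6. The medians of the alpha ring, the lid and the base genes other than ATPases were also above 0 in 6 of 6 bears. PSMG1, which with PSMG2 forms the chaperone that starts the alpha ring, was at 8.34, 12.2 and 14.5 CPM in summer and at 14.5, 15.7 and 20.2 in winter, where the lowest winter library lay just above the highest summer library. Its log2 fold change was 0.43 (SE 0.12, adjusted p = 0.0162), and the call was lost without bear 1305 (0.0568). Its partner PSMG2 was at 16.7, 21.4 and 28.2 CPM in summer and at 23.1, 25.6 and 36.5 in winter, higher in 6 of 6 bears with overlapping seasons. For PSMG2 the log2 fold change was 0.34 (SE 0.10, adjusted p = 0.0201), but without the bear as a term the adjusted p was 0.0924 in edgeR and 0.0778 in DESeq2. It was also lost with library totals (0.0983) and without bear 1305 or 1317 (0.0514 to 0.0572).

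The other pair of alpha ring chaperones was not called. PSMG3 stood at 0.38 (SE 0.15, adjusted p = 0.0584), close to the threshold, and was called in limma voom (0.0463), with filterByExpr (0.0466) and without bear 1509 (0.00985, at 0.51 on the log2 scale). PSMG4, with 52 to 181 reads per library, stood at 0.27 (SE 0.29, adjusted p = 0.495). Of the chaperones of the base, PSMD10 stood at 0.26 (adjusted p = 0.123, and 0.0337 without bear 1511), PSMD9 at 0.05 and PSMD5 at −0.08.

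Activators can cap the barrel in place of the 19S particle and open its gate without ubiquitin. Of the 4 genes 1 rose, PSME2, where 19.6% of all genes tested were higher, and the median log2 fold change was −0.02. PSME2, the beta subunit of the interferon-inducible activator PA28, was at 26.5, 43.4 and 52 CPM in summer and at 32.2, 53.2 and 79.2 in winter, higher in 5 of 6 bears with overlapping seasons. Its log2 fold change was 0.40 (SE 0.12, adjusted p = 0.0207). Without the bear as a term the adjusted p was 0.148 in edgeR and 0.126 in DESeq2, with library totals it was 0.0773, and without bear 1305, 1511 or 1512 it was 0.0521 to 0.069. PSME1, the alpha subunit of the same activator, was at 31, 46.7 and 59.5 CPM in summer and at 44.4, 47.4 and 57.7 in winter and was not called (0.06, SE 0.14, adjusted p = 0.734).

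PSME3, the nuclear form of PA28, was at 33.2, 34.8 and 37.2 CPM in summer and at 29.5, 32.5 and 36.4 in winter (−0.10, SE 0.10, adjusted p = 0.422). PSME4, the activator PA200, was at 111, 153 and 246 CPM in summer and at 121, 152 and 202 in winter (−0.10, SE 0.16, adjusted p = 0.644). Neither was called, and PSME4 was the more variable between bears. PSMF1, which encodes the proteasome inhibitor PI31, was at 38.8, 49.3 and 63.7 CPM in summer and at 38.8, 44.6 and 56.9 in winter, not called at −0.17 (SE 0.13, adjusted p = 0.345).

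The symbol rule also took PSMC3IP, which is not a proteasome subunit but a factor of meiotic recombination named for its binding to PSMC3. It was at 0.704, 1.05 and 1.88 CPM in summer and at 1.63, 1.97 and 2.57 in winter, from 18 to 79 reads per library. The log2 fold change of 0.84 (SE 0.25, adjusted p = 0.0209) was the highest of the 48, positive in 6 of 6 bears, and the call was lost without bear 1316 or 1512 (0.0582 to 0.0665). Leaving this gene out, 10 of the 11 calls that were higher belonged to the proteasome, its chaperones and its activators.

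Among the genes that work with the proteasome, 32 others were tested, of which 7 rose (21.9%) and 3 fell (9.38%), with a median log2 fold change of 0.07. The share higher is near the 19.6% of all genes, and 21.2% of all genes were lower. These were subunits and assembly factors with other names (1 of 5 higher, 1 lower), shuttle factors and enzymes bound to the particle (3 of 16 higher, 1 lower), the pathway of NFE2L1 (1 of 5 higher) and the supply of free ubiquitin (2 of 6 higher, 1 lower). PAAF1, which binds the ATPases and holds the cap off the barrel, rose from 8.51, 10 and 12.6 CPM to 13.1, 17.2 and 20.2, a log2 fold change of 0.74 (SE 0.13, adjusted p = 0.00139) with no overlap. AKIRIN2, which helps to bring the proteasome into the nucleus, fell by 0.41 on the log2 scale (adjusted p = 0.019), a call lost without bear 1305, 1316 or 1511 (0.0514 to 0.0609). ADRM1, the other main ubiquitin receptor of the base, was not called at 0.07 (adjusted p = 0.757), nor was POMP, the chaperone of the beta ring, at −0.22 (adjusted p = 0.134), though it was called lower without bear 1509 (−0.30, adjusted p = 0.0377). SEM1, a small lid subunit, had 2 reads in all and was not tested.

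Of the enzymes that cut ubiquitin on the cap, UCHL5 rose from 41.2, 51.8 and 60.6 CPM to 67, 90.3 and 105, a log2 fold change of 0.83 (SE 0.12, adjusted p = 0.000353). Its winter libraries lay above its summer libraries. USP14, which sits beside it on the cap, was not called at −0.03 (adjusted p = 0.835). RAD23B, a shuttle that carries tagged proteins to the cap, rose by 0.61 (SE 0.13, adjusted p = 0.00349), also with no overlap between 245 to 377 CPM in summer and 402 to 563 in winter. ZFAND5, known to stimulate the particle, fell by 0.43 on the log2 scale (adjusted p = 0.0332), a call lost without bear 1316, 1317, 1511 or 1512 (0.0639 to 0.0967).

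NFE2L1 is the transcription factor known to raise proteasome genes together when the particle is inhibited. Its own mRNA was not called, at −0.13 (SE 0.13, adjusted p = 0.438). SEL1L, part of the ubiquitin ligase complex of the endoplasmic reticulum that handles NFE2L1, rose by 0.78 (SE 0.11, adjusted p = 0.00042). The rest of this list was not called, with SYVN1 at 0.20, NFE2L2 at −0.12 and NGLY1 at −0.32 (adjusted p = 0.0567 for NGLY1). NGLY1 was called lower with library totals (0.048) and without bear 1509 (0.0351). In the supply of ubiquitin, RPS27A, which encodes ubiquitin fused to a ribosomal protein, rose from 537, 714 and 936 CPM in summer to 1317, 1623 and 2058 in winter, a log2 fold change of 1.19 (SE 0.15, adjusted p = 0.000173). UCHL1, a ubiquitin hydrolase, rose by 0.95 (adjusted p = 0.000243). The winter libraries of both genes lay above their summer libraries. UCHL3, a related hydrolase, fell by 0.62 on the log2 scale (SE 0.15, adjusted p = 0.00726). Apart from RPS27A, the genes tested in this list encode enzymes, so the amount of ubiquitin made was not measured.

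**Figure D5:**
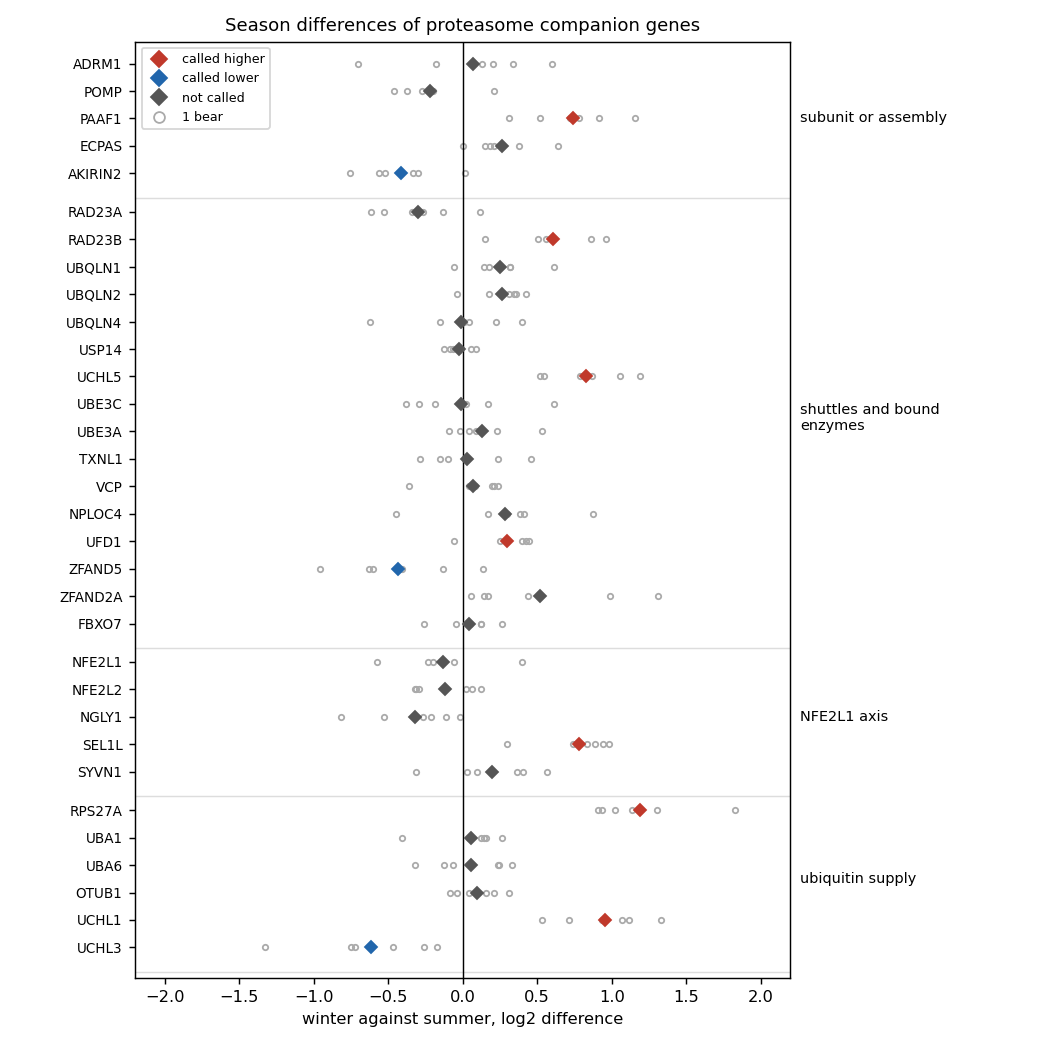
Winter against summer log2 fold change of the 32 genes that work with the proteasome (diamonds) and the difference in each of the 6 bears (open circles), grouped by role. RPS27A lies farthest to the right, and 7 genes were called higher and 3 lower.

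Peptides made by the immunoproteasome are loaded on class I molecules, and 10 genes of that route were compared. Of these 1 rose and 5 fell, with a median log2 fold change of −0.34, where 19.6% of all genes were higher and 21.2% lower. TAP1, TAP2 and B2M were among the 4 genes not called. ERAP2, which trims the peptides, fell by 0.81 on the log2 scale (SE 0.16, adjusted p = 0.00241). PDIA3, a chaperone of the endoplasmic reticulum that also serves peptide loading, fell by 0.50 (SE 0.10, adjusted p = 0.00258). CANX, a chaperone of the endoplasmic reticulum, rose by 0.34 (adjusted p = 0.0214), a call lost with library totals (0.102) and without bear 1305, 1316 or 1512 (0.0535 to 0.0655). Of 9 genes that carry the interferon signal 1 rose (11.1%) and 3 fell (33.3%). IRF8, a factor of immune cells, fell by 0.97 (SE 0.27, adjusted p = 0.0138) and JAK2, a kinase of the receptors, fell by 0.49 (SE 0.12, adjusted p = 0.00809; 0.0783 without the bear as a term). IFNGR1, a receptor chain, rose by 0.32 at the threshold itself (adjusted p = 0.0499), and lost the call without bear 1305, 1316, 1317 or 1512 (0.0599 to 0.177).

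Many markers of other cell types in the biopsy differed between the seasons too. Over all genes tested 19.6% were higher and 21.2% lower, and 8.21% did not overlap between the seasons and were lower. The 11 leukocyte markers, each read in every library, summed to 89.9 to 120 CPM in summer and to 33.3 to 79.8 in winter, and 7 of them fell. The 7 fibroblast markers summed to 4224 to 11398 CPM in summer and to 281 to 1697 in winter, with 6 lower. Most of the summer sum came from COL1A1, COL1A2 and COL3A1, at medians of 1264, 1797 and 3608 CPM. PDGFRA was not called at −0.46 (adjusted p = 0.0778), but was called without bear 1511 (0.0361). The fibroblast sums did not overlap between the seasons, and of the single fibroblast markers 4 did not. The 6 endothelial markers tested summed to 588 to 921 CPM in summer and to 396 to 460 in winter, with 1 higher and 4 lower. These sums did not overlap either, and of the single markers 3 did not. The 5 adipocyte markers summed to 297 to 1376 CPM in summer and to 216 to 459 in winter, with 1 lower and LEP at 0 reads in 4 libraries. FABP4 was the marker called lower and made most of the summer sum, at a median of 418 CPM. The other 4 adipocyte markers were not called. The 10 markers of muscle fibres summed to 122240 to 206489 CPM in summer and to 125418 to 163625 in winter, with 1 higher and 4 lower. The part of these cell types in the values of PSMB8, PSMB9, PSMB10, PSME1, PSME2 and the presentation genes was not tested.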

How the data were processed

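Muscle RNA of 6 bears was measured in summer and winter, 12 libraries grouped by their labels. The authors sequenced single-end stranded poly-A libraries, mapped them with TopHat2 2.1.1 on assembly ASM358476v1 of the brown bear and counted reads per gene on the reverse strand with featureCounts 1.6.2. The deposited values are these counts, neither normalized nor filtered. Which library ran in which sequencing lane is not in the labels, and lanes were not tested. Near-identical gene copies were not resolved.

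Genes with fewer than 30 reads over the 12 libraries were left out, which kept 17290 of 30249. Counts were scaled by TMM, and edgeR 4.0.16 in R 4.3.3 (glmQLFit, glmQLFTest) was fitted to all genes with bear and season as terms. P-values were adjusted by Benjamini-Hochberg over all genes tested, and a call had an adjusted p below 0.05. Log2 CPM used a prior count of 2. Depth was 16742406 to 32140160 reads per library. The fit was tested on simulated data. Alternatives were no bear term, DESeq2 1.42.0 with and without it, limma 3.58.1 voom, RLE, library totals, no filter, filterByExpr, each bear left out, and an adjusted p below 0.01 with a fold change above 1.3 or below 0.77. For the subunit ratios the alternatives were another prior count, library totals and each bear left out. The comparison with genes at the level of the proteasome genes was added after the data were seen.

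The same bears were sampled in both seasons, so bear was a replicate block. Once season means were removed, the pair from a given bear correlated at 0.0903 to 0.344 (median 0.237). The 30 pairs from different bears correlated at −0.214 to 0.142 (median −0.0634), so the ranges overlapped. Within a season the lowest chi-square per gene between libraries was 39.1, so no library copies another.

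The members and all gene lists were chosen with earlier results of these data known. Genes were named by a rule: the cutting subunits and their replacements, the activators, PSMF1 and the PSMG chaperones, the called gene with the largest change in each group, calls against the median of their group, calls that depend on the bear term, and, in the companion lists (proteasome partners, class I presentation, interferon signal), the largest called rises and falls with NFE2L1, ADRM1, SEM1, POMP and USP14. Other named genes were chosen after their values were seen. Some genes of the ubiquitin supply are not reported here.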

Additional observations from a re-analysis of the deposited data

Results flagged for a closer look

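In 10 of the 96 sets of 6 libraries (48 genes in each season) the highest or lowest library stood apart by Dixon's rule at the 95% level, where chance flags about 1 set in 20. The winter library of bear 1509 was the lowest in 4 of them, at 5.94 log2 CPM for PSMA7 (others 6.50 to 6.67), 5.38 for PSMB4 (5.95 to 6.27), 6.32 for PSMB5 (6.80 to 7.05) and 6.39 for PSMB6 (6.83 to 7.05). Bear 1316 in winter was lowest for PSMB2 at 5.66 log2 CPM (others 5.80 to 5.87) and highest for PSMG2 at 5.19 (4.54 to 4.76). Bear 1305 was highest for PSMA2 in summer at 7.07 log2 CPM (others 6.71 to 6.82) and for PSMG1 in winter at 4.34 (3.87 to 4.03). In winter, PSMD7 was lowest in bear 1317 at 6.72 log2 CPM (others 6.97 to 7.06) and PSMD8 was highest in bear 1511 at 6.38 (5.77 to 5.98). All sets of a season come from the same 6 libraries, so the 96 sets are not independent. The share of flagged sets over all genes tested was not counted.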

How the results depend on the processing

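The number of proteasome genes called higher, 11, was 9 without the replicate block, 11 in DESeq2 with the replicate block and 9 without it, 12 in limma voom with the replicate block, 11 with RLE, 8 with library totals and 12 with filterByExpr. The number called lower, 3, stayed at 3 in these settings, except 4 with library totals. Without the replicate block 12 genes were called, and these 12 were among the 14 called with it. Without the filter on low counts 10 genes were called higher and 1 lower. Across these settings 13.6 to 22.2% of all genes were higher and 15.7 to 23.6% lower. At an adjusted p below 0.01 with the limits on the fold change, 4 were higher and 0 lower in edgeR, where 3 were lower at an unadjusted p below 0.05. With 1 bear left out, 5 to 13 were higher and 0 to 3 lower, fewest without bear 1305. Of the 11 higher, 4 (PSMA3, PSMA7, PSMD6 and PSMD13) were called in every alternative that kept the threshold of 0.05, and of the 3 lower 0 were. No called gene changed direction, whereas PSMA1, PSMA2, PSMB1, PSMD1, PSMD7, PSMD9, PSME1 and PSME4, which were not called, changed sign in 1 to 5 alternatives. The ratios of the immunoproteasome subunits kept their sign, but with 1 bear left out the difference of PSMB8 to PSMB5 ran from −0.30 (without bear 1305) to −0.05 (without bear 1512; −0.12 without bear 1316), that of PSMB9 to PSMB6 from −0.53 to −0.29 and that of PSMB10 to PSMB7 from 0.13 (without bear 1305) to 0.37. PSMA8, PSMB9, PSMB10 and PSMC3IP rest on 2 to 113 reads per library.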
